A study of Mus musculus with 9 samples.

Results

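The kinesin (Kif) genes of the mouse array were followed across 3 cell lines. Members were the probe sets outside the controls whose only gene symbol starts with Kif and a digit, and each gene was represented by its brightest probe set, that is the probe set with the highest mean over all arrays. This gave 37 Kif genes of 18193 genes tested, from 99 probe sets. By their textbook roles 12 of them are mitotic kinesins, 13 are transport kinesins and 12 are ciliary or other kinesins. Kif genes with a letter after Kif, such as Kifc3, are outside the rule and stand among the partner genes.

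There were 3 mouse lines with 3 arrays each, 9 in all. The wild-type line (WT-NLE) is a non-tumorigenic epithelial line from the trachea of a Gprc5a wild-type mouse aged 3 weeks. The knockout line (NULL-NLE) is its counterpart without Gprc5a, likewise tracheal and from a mouse aged 3 weeks. MDA-F471, here called the tumour line, comes from an adenocarcinoma in the lung of a female mouse without Gprc5a, 16 months after intraperitoneal injection of NNK, a carcinogen of tobacco smoke. All 3 lines have the strain background C57/BL6 x sv129, and the knockout and tumour lines share the loss of Gprc5a. Each group is 1 cell line, and the tumour line also differs in organ, mouse age and NNK treatment, so that genotype, tumour origin, line and handling cannot be told apart. Nothing in the labels states that the 3 replicates were grown as separate cultures. The p-values therefore reflect the spread between arrays, which may be technical.

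Kinesins are motor proteins that use ATP to move along microtubules or to take their ends apart. Mitotic kinesins build the spindle, move chromosomes and complete cytokinesis, and their transcripts accumulate in dividing cells around the G2 phase and mitosis. Transport kinesins carry vesicles, organelles and proteins through cells at all times, and several are best known from neurons. Other kinesins work in cilia or shape the microtubules of cells between divisions.

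Because the mitotic members moved together, the start regions of 10 members were set side by side. They show the motifs CCAAT, the box bound by NF-Y, and TTTGAA, a form of the cell cycle homology region found in genes of the G2 phase and mitosis. The windows run from 100 bases before to 30 bases after the gene's start on the gene's strand, were taken from RefSeq on build GRCm38.p6, and carry either motif in capitals (ATTGG and TTCAAA are the same motifs on the opposite strand). Kif11, Kif4, Kif22, Kif18b, Kif20b, Kif23 and Kif18a are mitotic kinesins that rose in the tumour line, and Kif1b, Kif1c and Kif13a are the transport kinesins that fell. Kif2c and Kif20a also rose but are not shown. The only TTTGAA of Kif2c begins 103 bases before the start, so this window would not hold it whole, and Kif2c has no CCAAT. Kif20a had no matched promoter. Of the 2 starts listed for Kif1b the first is shown.
Kif11 (chr19:37376282-37376411, plus strand): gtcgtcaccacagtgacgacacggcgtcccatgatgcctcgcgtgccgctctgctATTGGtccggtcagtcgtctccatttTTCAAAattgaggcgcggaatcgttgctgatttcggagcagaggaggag
Kif4 (chrX:100625965-100626094, plus strand): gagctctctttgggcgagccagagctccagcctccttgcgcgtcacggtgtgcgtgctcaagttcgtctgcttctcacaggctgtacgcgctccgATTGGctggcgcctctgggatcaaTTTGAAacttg
Kif22 (chr7:127042391-127042520, minus strand): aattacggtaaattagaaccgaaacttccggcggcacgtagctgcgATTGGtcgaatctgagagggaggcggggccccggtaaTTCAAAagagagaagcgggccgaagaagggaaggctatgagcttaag
Kif18b (chr11:102925095-102925224, minus strand): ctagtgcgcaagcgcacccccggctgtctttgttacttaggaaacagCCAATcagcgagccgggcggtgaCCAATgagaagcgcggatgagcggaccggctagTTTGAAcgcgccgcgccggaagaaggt
Kif20b (chr19:34922258-34922387, plus strand): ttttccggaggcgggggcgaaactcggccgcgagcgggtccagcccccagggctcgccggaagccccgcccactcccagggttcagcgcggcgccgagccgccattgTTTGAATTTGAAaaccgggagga
Kif23 (chr9:61946770-61946899, minus strand): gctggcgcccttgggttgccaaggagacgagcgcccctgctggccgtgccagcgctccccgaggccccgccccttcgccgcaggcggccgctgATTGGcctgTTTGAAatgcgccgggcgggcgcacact
Kif18a (chr2:109280638-109280767, plus strand): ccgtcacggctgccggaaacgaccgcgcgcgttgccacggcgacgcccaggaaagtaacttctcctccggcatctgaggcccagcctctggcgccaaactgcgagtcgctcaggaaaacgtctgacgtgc
Kif1b (chr4:149307704-149307833, minus strand): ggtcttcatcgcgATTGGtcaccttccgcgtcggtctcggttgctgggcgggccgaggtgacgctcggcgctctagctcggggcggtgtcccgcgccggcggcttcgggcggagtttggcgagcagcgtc
Kif1c (chr11:70700448-70700577, plus strand): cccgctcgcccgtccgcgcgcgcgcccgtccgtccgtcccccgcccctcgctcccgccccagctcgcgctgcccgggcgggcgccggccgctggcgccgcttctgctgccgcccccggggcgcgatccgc
Kif13a (chr13:46929689-46929818, minus strand): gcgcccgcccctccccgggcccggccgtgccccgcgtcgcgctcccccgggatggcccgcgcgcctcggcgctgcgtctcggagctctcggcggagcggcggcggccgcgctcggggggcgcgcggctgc
Kif11, Kif4, Kif22, Kif18b and Kif23 hold both motifs close to the start, Kif20b holds adjoining copies of TTTGAA, Kif1b holds CCAAT alone, and Kif18a, Kif1c and Kif13a hold neither in this window.

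Over the full stretch of 250 bases before to 50 after the start, on either strand, TTTGAA was present in 9 of the 11 mitotic Kif genes that have a promoter in the table (81.8%). It was present in 1 of 10 transport members (10%), namely at a second start of Kif1a, in 2 of 10 other members (20%) and in 20.2% of 27025 genes. Within 100 bases before to 50 after the start, TTTGAA was found in 7 of the 11 mitotic members (63.6%). It was found there in 1 of 10 transport members, 2 of 10 other members (20%) and 9.23% of all genes. CCAAT was present in 7 of 11 mitotic (63.6%), 3 of 10 transport (30%) and 4 of 10 other members (40%), against 41.1% of all genes. Both motifs were present in 6 of 11 mitotic members (54.5%), 0 of 10 transport members, 2 of 10 other members (20%) and 8.97% of all genes. The other members with both are Kif27 and Kif26b, and Kif26b fell in the tumour line. Kif15 holds TTTGAA and Kif14 holds both motifs, although the signal of neither rose in the tumour line. A match describes the letters only. Promoters were matched for 31 of the 37 genes, and Kif20a, Kif5a, Kif5b, Kif13b, Kif21b and Kif28 had no match.

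The values are log2 signals, whose array medians lay between 6.28 and 6.34. A floor of 5.15, the 95th percentile of 27 bacterial control probe sets, marked background. Gprc5a itself read 2.66-fold lower in the knockout than in the wild-type line (-1.41 ± 0.11 log2, limma adjusted p = 1.52e-07), and whether its probe set lies in the deleted part is unknown. Both tracheal lines had high Krt5 and Krt14, which mark airway basal cells, and neither was called between them. The basal cell factor Trp63 was 2.57-fold lower in the knockout than in the wild-type line (limma adjusted p = 4.46e-07), and the simple epithelial keratin Krt18 5.87-fold higher (adjusted p = 1.98e-09). Of the other simple epithelial markers Krt8 differed by 0.98 log2 between these lines, Cdh1 by -0.26 and Epcam by -0.01, none called. All 3 basal markers were lower in the tumour line than in the knockout line. Of 4 simple epithelial markers 2 were called higher there, while Cdh1 was lower by less than 2-fold (-0.71 log2, limma adjusted p = 1.01e-05). None of the fibroblast, endothelial or multiciliated markers (7, 4 and 7 measured) was called in any comparison, and of 5 leukocyte markers 1, Cd68, was called, lower in the tumour than in the wild-type line. The 3' to 5' difference of beta-actin, which rises with RNA degradation, ranged from 0.75 to 1.78 log2 on the wild-type, 0.90 to 0.95 on the knockout and 0.37 to 0.74 on the tumour arrays. The exact permutation p was 0.6 for knockout against wild-type and 0.1, the smallest that 3 against 3 arrays allow, for each comparison with the tumour line. The hybridisation control BioB-M read 7.60 to 8.24 on the tumour arrays against 8.32 to 9.48 on the others. Their part in the results was not tested.

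In the tumour line 9 of the 12 mitotic kinesins rose against the knockout line and 0 fell, while transport kinesins split, with 1 of 13 higher and 3 lower. A gene was called, here said to have risen or fallen, at a Benjamini-Hochberg adjusted p under 0.05 over all 18193 genes and a difference of at least 2-fold in limma. In all, 17 of 37 Kif genes were called between tumour and knockout lines, 11 higher and 6 lower, where 14.2% of all genes were called, 7.79% higher and 6.38% lower. With no limit on size 26 Kif genes passed, where 44.5% of all genes did. The median log2 difference was 1.98 for mitotic, -0.25 for transport and -0.13 for ciliary and other kinesins, and 2.7e-05 for all genes. Against the wild-type line 16 Kif genes were called in the tumour line, 11 higher and 5 lower, where 16.6% of all genes were called, 8.09% higher and 8.46% lower. With no limit on size 24 passed, where 47.3% of all genes did. Here 9 of 12 mitotic kinesins rose, 1 transport kinesin rose and 3 fell, and the medians were 1.80 for mitotic and -0.08 for transport kinesins against 0.01 for all genes. The comparisons share arrays and are therefore given side by side.

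**Figure D1:**
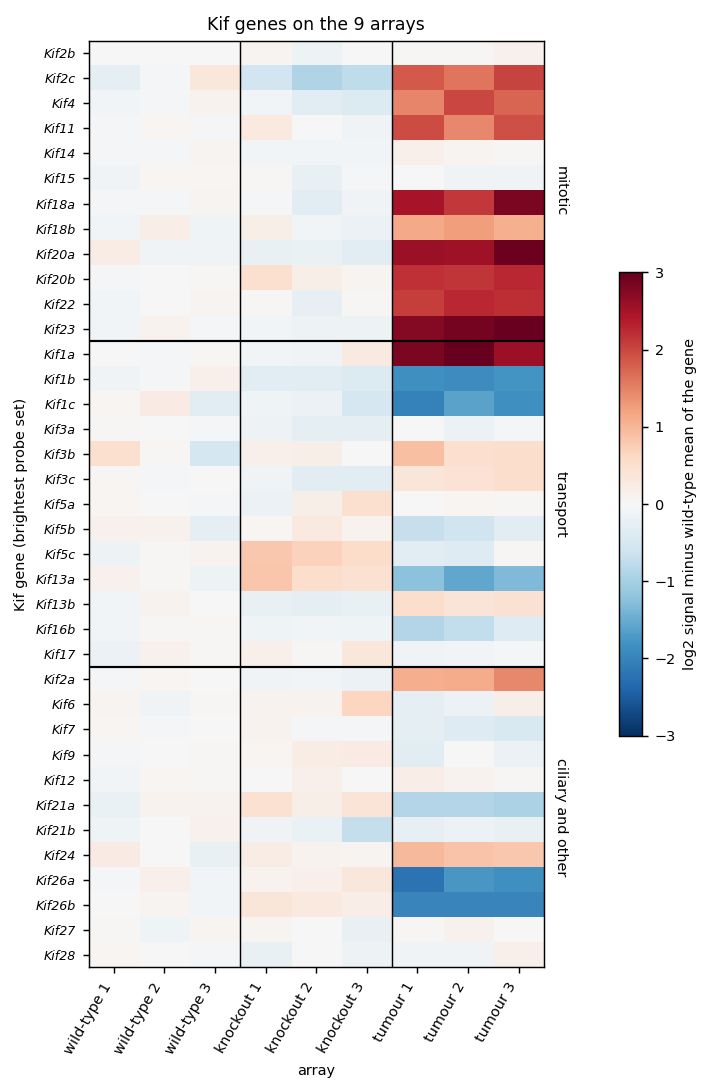
Log2 signal of each of the 37 Kif genes (rows, by role) on each of the 9 arrays (columns), as the difference from that gene's mean on the wild-type arrays. The tumour arrays are red for 9 of 12 mitotic kinesins, Kif1a and Kif2a, and blue for Kif1b, Kif1c, Kif13a, Kif21a, Kif26a and Kif26b, while the knockout arrays stay pale.

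Between knockout and wild-type lines 0 of 37 Kif genes were called by limma, where 4.88% of all genes were called, 1.9% higher and 2.98% lower. At an unadjusted p under 0.05 there were 11 Kif genes, where 35% of all genes passed, and at an adjusted p under 0.05 with no limit on size there were 7, where 26.4% of all genes passed. The medians were -0.08 for mitotic, 0.03 for transport and 0.09 for ciliary and other kinesins against -0.0042 for all genes. That of the transport kinesins had no stable sign: without wild-type replicate 3 it was -0.10 and without knockout replicate 3 -0.09.

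Kif2c, a microtubule depolymerase that corrects wrong attachments at kinetochores, had the largest difference between these lines. It read 7.50, 7.76 and 8.13 log2 on the wild-type and 7.22, 6.88 and 7.04 on the knockout arrays, a difference of -0.75 ± 0.15 SE (adjusted p = 0.00168) that stayed under 2-fold. The arrays did not overlap, as was so for 39.1% of all genes. The other Kif2c probe sets differed by -0.15, -0.08 and 0.01. For the other 11 mitotic kinesins the 95% intervals of the difference between knockout and wild-type lines lay between -0.55 and 0.47, which leaves out a 2-fold change of these signals. Kif2b and Kif14 are counted here but lay at background.

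Kif5c and Kif13a, both transport motors, were highest in the knockout line. Kif5c, a heavy chain of conventional kinesin best known from neurons, read 8.26, 8.44 and 8.52 on the wild-type, 9.22, 9.10 and 8.96 on the knockout and 8.09, 8.03 and 8.44 on the tumour arrays. The knockout arrays stood above all others, while wild-type and tumour arrays overlapped. The difference was 0.68 ± 0.12 log2 for knockout against wild-type (adjusted p = 0.000523) and -0.91 ± 0.12 for tumour against knockout (adjusted p = 1.52e-05), both under 2-fold. Without tumour replicate 3 the second was called, at -1.03. The other Kif5c probe sets differed by 0.29, 0.59 and 0.07, and by -0.11, -1.27 and -0.15, in these comparisons. Of these only -1.27 was called, and the last probe set lay under the floor throughout. Kif13a, which carries the mannose 6-phosphate receptor and endosomal cargo, was 0.61 ± 0.12 higher in the knockout than in the wild-type line (adjusted p = 0.00144). Its other 4 probe sets differed the same way there, by 0.34 to 0.74. Kif1b was 0.35 ± 0.09 lower in the knockout line (adjusted p = 0.0120), and Kif21a and Kif26b were 0.34 and 0.29 higher (adjusted p = 0.0324 and 0.0229). Kif3a, a subunit of the kinesin that drives transport into cilia, differed by -0.26 (adjusted p = 0.0462). The other Kif3a probe sets differed by 0.02, -0.05 and 0.27, so they give this gene no common direction.

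The motors of spindle assembly came first among the mitotic members. Kif11 (Eg5) pushes the spindle poles apart. Its signal was 7.32, 7.39 and 7.32 on the wild-type, 7.63, 7.34 and 7.22 on the knockout and 9.30, 8.78 and 9.28 on the tumour arrays. All tumour arrays lay above all tracheal arrays, which overlapped each other. Kif11 rose by 1.72 ± 0.14 log2 against the knockout line (3.30-fold, adjusted p = 6.45e-08) and by 1.78 ± 0.14 against the wild-type line (adjusted p = 3.77e-08). Kif15, which backs up Kif11 in keeping spindles bipolar, did not follow. Its only probe set read 7.03 to 7.32 over all 9 arrays, and it differed by 0.02 between tumour and knockout lines (95% interval -0.18 to 0.23).

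The chromokinesins Kif4 and Kif22 bind chromosome arms and push them towards the middle of the spindle. Kif4 read 7.73, 7.78 and 7.93 on the wild-type, 7.74, 7.48 and 7.41 on the knockout and 9.27, 9.81 and 9.56 on the tumour arrays. It rose by 2.01 ± 0.13 log2 against the knockout line (4.01-fold, adjusted p = 6.86e-09) and by 1.74 ± 0.13 against the wild-type line. For Kif22 the tumour arrays, at 11.18, 11.38 and 11.34, stood above the wild-type arrays (9.03, 9.11 and 9.19) and the knockout arrays (9.15, 8.86 and 9.14). This was a rise of 2.25 ± 0.10 against the knockout line (4.75-fold, adjusted p = 1.29e-10). Pseudogenes of Kif4 and Kif22 are listed in the mouse gene table, and the brightest Kif22 probe set is of the cross-hybridising _x_at kind. Whether these probe sets tell the genes from their copies was not checked. The other Kif22 probe sets rose as well, by 2.98 and 2.54.

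Among the 12 mitotic members, 3 that shorten or dampen the ends of spindle microtubules rose. Kif2c went from 7.22, 6.88 and 7.04 in the knockout line to 9.64, 9.40 and 9.82 in the tumour line, a rise of 2.57 ± 0.15 log2 (5.93-fold, adjusted p = 2.19e-09), and by 1.82 ± 0.15 against the wild-type line. Its brightest probe set is also of the _x_at kind. A Kif2c probe set of the plain _at kind was called as well, at 2.00 against the knockout and 1.85 against the wild-type line. The brightest one left without _x_at and _s_at probe sets was not, at 0.82 and 0.74. Kif18a, which dampens chromosome movements before anaphase, read 5.97, 5.97 and 6.11 on the wild-type, 5.97, 5.69 and 5.92 on the knockout and 8.47, 8.13 and 8.84 on the tumour arrays. Tumour and tracheal arrays were far apart, and the rise was 2.62 ± 0.14 against the knockout line (6.17-fold, adjusted p = 1.08e-09). Kif18b, which shortens astral microtubules, had the smallest rise among those called. Its arrays read 7.85, 8.13 and 7.81 (wild-type), 8.11, 7.85 and 7.75 (knockout) and 9.07, 9.19 and 9.002 (tumour), a rise of 1.19 ± 0.12 against the knockout line (2.27-fold, adjusted p = 6.14e-07). Kif2b stayed under the floor on every array, at 3.32 to 3.59, so no level was measured.

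Cytokinesis motors included the largest rises of the family. Kif23 (MKLP1) bundles the midzone microtubules between separating chromosomes. Its signal was 8.004, 8.19 and 8.06 on the wild-type, 8.004, 7.93 and 7.94 on the knockout and 10.85, 10.95 and 11.04 on the tumour arrays. Replicates lay close together in each line, and the tumour arrays stood far above the rest. The rise was 2.99 ± 0.09 against the knockout line (7.93-fold, adjusted p = 1.44e-12) and 2.86 ± 0.09 against the wild-type line (7.28-fold, adjusted p = 1.79e-12). Kif20a (MKLP2), which brings the chromosomal passenger complex to the midzone, read 7.19, 6.85 and 6.86 (wild-type), 6.74, 6.77 and 6.63 (knockout) and 9.56, 9.51 and 9.91 (tumour). It rose by 2.95 ± 0.12 against the knockout line (7.73-fold, adjusted p = 4.97e-11) and by 2.70 ± 0.12 against the wild-type line.

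Kif20b, a further midzone motor, read 7.05, 7.06 and 7.11 on the wild-type, 7.56, 7.25 and 7.15 on the knockout and 9.27, 9.22 and 9.33 on the tumour arrays. Its knockout arrays all lay above its wild-type arrays, by a mean of 0.25 (adjusted p = 0.102). The rise in the tumour line was 1.95 ± 0.10 against the knockout (3.87-fold, adjusted p = 8.12e-10) and 2.20 ± 0.10 against the wild-type line. Kif14, which recruits citron kinase to the midbody, was under the floor on all 9 arrays, at 3.67 to 3.91. The 3 mitotic members without a call were therefore Kif2b and Kif14, at background, and Kif15. Over all 12 mitotic kinesins 10 had tumour arrays above all knockout arrays and 0 had them below, where the arrays of 52.3% of all genes did not overlap. The tenth gene here was Kif14, at background. Against the wild-type arrays the count was also 10 above and 0 below, where 54.7% of all genes did not overlap. There the tenth gene was Kif2b, likewise at background.

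**Figure D2:**
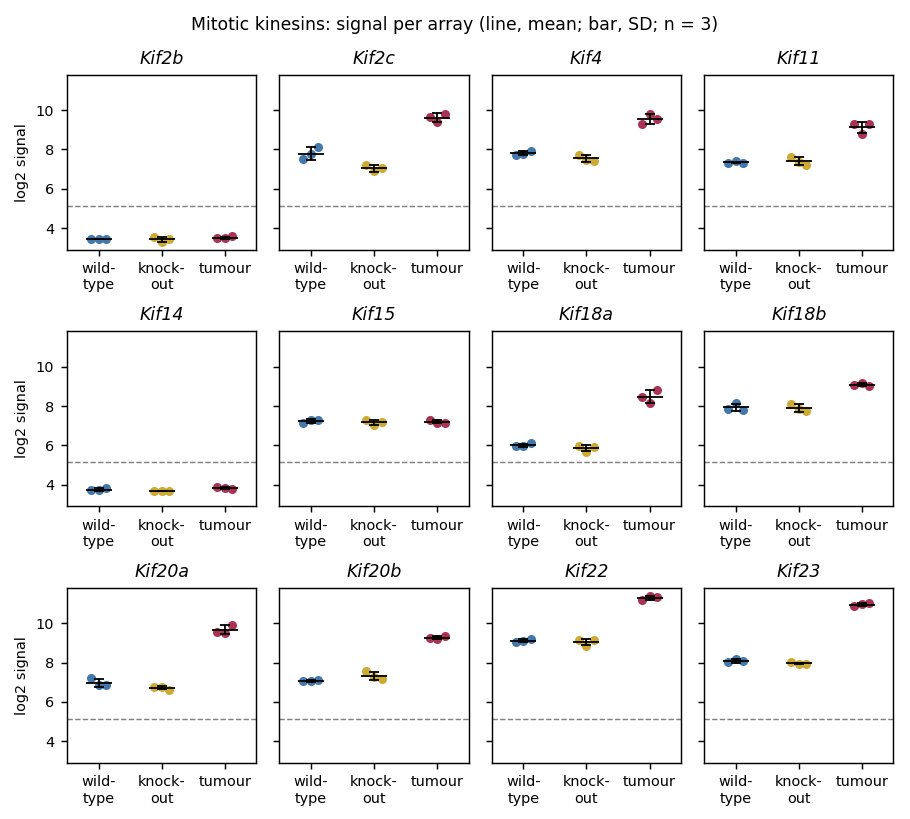
Log2 signal of the 12 mitotic kinesins on each array by line (points), with the mean and SD over 3 arrays; the dashed line is the floor of 5.15. The tumour arrays stand above all others for 9 genes, Kif15 is level, and Kif2b and Kif14 lie under the floor throughout.

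Mki67, the usual marker of proliferating cells, rose with the mitotic kinesins in the tumour line, by 1.97 ± 0.13 log2 against the knockout line. It was 0.44 ± 0.13 lower in the knockout than in the wild-type line (adjusted p = 0.0216). There only 1 of 12 mitotic kinesins, Kif2c, had a limma adjusted p under 0.05, where 26.4% of all genes did, and their median was -0.08. In these RNA pools a larger share of dividing cells and more transcript per dividing cell cannot be told apart. Of 16 listed partners of the mitotic motors, 15 rose in the tumour against the knockout line and 0 fell, where 7.79% of all genes rose and 6.38% fell, and their median was 2.15. They include Tpx2, the spindle assembly factor (2.92 ± 0.10), the kinase Aurka (2.68 ± 0.11), Racgap1, which pairs with Kif23 in centralspindlin (2.67 ± 0.12), and Cenpe, a kinetochore kinesin outside the naming rule (2.49 ± 0.11). Citron kinase (Cit) was the partner without a call, at 0.14. The Cit probe set used, 1 of 4, is of the _x_at kind and read 8.52 to 8.90 over all arrays. Against the wild-type line 15 also rose, where 8.09% of all genes did, led by the cytokinesis activator Ect2 at 3.22 ± 0.15. Ect2 also was the only mitotic partner called between knockout and wild-type lines, where 4.88% of all genes were, at 1.04 ± 0.15 higher (2.06-fold, adjusted p = 7.90e-05). With no limit on size 3 of the 16 partners passed there, where 26.4% of all genes did. The others were Tpx2 and Racgap1, lower by 0.44 and 0.45 (limma adjusted p = 0.00414 and 0.0136). The partner median was -0.06.

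Among transport kinesins Kif1a, a carrier of synaptic vesicle precursors in neurons, was the only member to rise. It read 5.29, 5.25 and 5.31 on the wild-type, 5.21, 5.18 and 5.55 on the knockout and 8.11, 8.28 and 7.86 on the tumour arrays. The tracheal arrays lay just above the floor of 5.15, so the size of the change rests in part on background. The difference was 2.77 ± 0.12 against the knockout line (6.83-fold, adjusted p = 9.05e-11) and 2.80 ± 0.12 against the wild-type line, and the second Kif1a probe set rose by 1.26 and 1.25. Of 8 measured neuronal and neuroendocrine markers 0 rose in the tumour line against the knockout line and 1, Map2, fell (-3.75). Of all genes 7.79% rose and 6.38% fell there, so a count over 8 genes says little. The summed log2 level of the 8 markers was carried by Map2. It was 8.80 to 8.91 on the tumour, 10.62 to 10.82 on the knockout and 9.66 to 9.74 on the wild-type arrays. Without Map2 the other 7 summed to 8.44 to 8.59, 8.58 to 8.77 and 8.73 to 8.83 in that order. Tubb3, Snap25 and Chga lay under the floor on all tumour and all knockout arrays, and Snap25 on all wild-type arrays as well.

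The transport kinesins that fell were Kif1b, Kif1c and Kif13a, all of the kinesin-3 family to which Kif1a belongs. Kif1b, which moves mitochondria and vesicles, read 9.9996, 10.06 and 10.27 on the wild-type, 9.78, 9.80 and 9.70 on the knockout and 8.26, 8.22 and 8.32 on the tumour arrays. Its 3 lines did not overlap. Kif1b fell by 1.50 on the log2 scale against the knockout line (SE 0.09, adjusted p = 4.63e-09) and by 1.85 against the wild-type line (adjusted p = 3.57e-10). Averaged over its 7 probe sets the first call was lost, at -0.63. Kif1c, which carries integrins and dense-core vesicles, read 11.21, 11.40 and 10.83, then 11.02, 10.97 and 10.65, then 9.12, 9.54 and 9.30 in the same order of lines. Wild-type and knockout arrays overlapped, and the tumour arrays lay below both. Kif1c differed by -1.56 ± 0.15 against the knockout line (adjusted p = 5.26e-07) and by -1.83 ± 0.15 against the wild-type line, and with the mean of its 4 probe sets the first call was lost, at -0.93.

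Kif13a went from 10.59, 10.29 and 10.21 in the knockout and 9.88, 9.78 and 9.60 in the wild-type line to 8.51, 8.20 and 8.42 in the tumour line. None of the 3 lines overlapped another, with the knockout line highest. The difference was -1.98 ± 0.12 against the knockout line (3.95-fold, adjusted p = 3.21e-09) and -1.37 ± 0.12 against the wild-type line (2.59-fold, adjusted p = 1.59e-07). With the mean of its 5 probe sets the second call was lost, at -0.89. Its close relative Kif13b went the other way by less than 2-fold, from 7.99, 7.95 and 8.002 in the knockout to 8.74, 8.60 and 8.67 in the tumour line (0.69 ± 0.09, adjusted p = 1.12e-05). This rests on the brightest Kif13b probe set. The others differed by -0.08, -0.04 and 0.17, none called, and the last lay under the floor throughout. Kif16b, which moves early endosomes, differed by -0.56 ± 0.11.

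The heavy chains of conventional kinesin gave smaller differences. Kif5b, the form made in most tissues, read 11.43, 11.67 and 11.47 in the knockout and 10.69, 10.78 and 11.07 in the tumour line, -0.68 ± 0.13 (adjusted p = 0.000426) and not called. Another Kif5b probe set, tested with every probe set on its own, was called at -1.62. Kif5a, a neuronal form, read 6.06 to 6.70 over all arrays and the lines overlapped. Of the kinesin-2 subunits Kif3c was 0.70 ± 0.09 and Kif3b 0.54 ± 0.19 higher in the tumour line than in the knockout, both under 2-fold. The second Kif3c probe set differed by 0.21, and the other Kif3b probe sets by 0.54, 0.38 and 0.42. Kif3a differed by 0.19 ± 0.09 (adjusted p = 0.0973), while its other probe sets differed by -0.07, -0.68 and -0.18. Kif3b varied most within a line, at 8.61, 8.19 and 7.62 on the wild-type arrays. The lowest was wild-type replicate 3, which also had the highest beta-actin 3' to 5' difference, 1.78; its part was not tested. Kif17, a dendritic and ciliary motor, differed by -0.25 ± 0.11 (adjusted p = 0.0715).

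**Figure D3:**
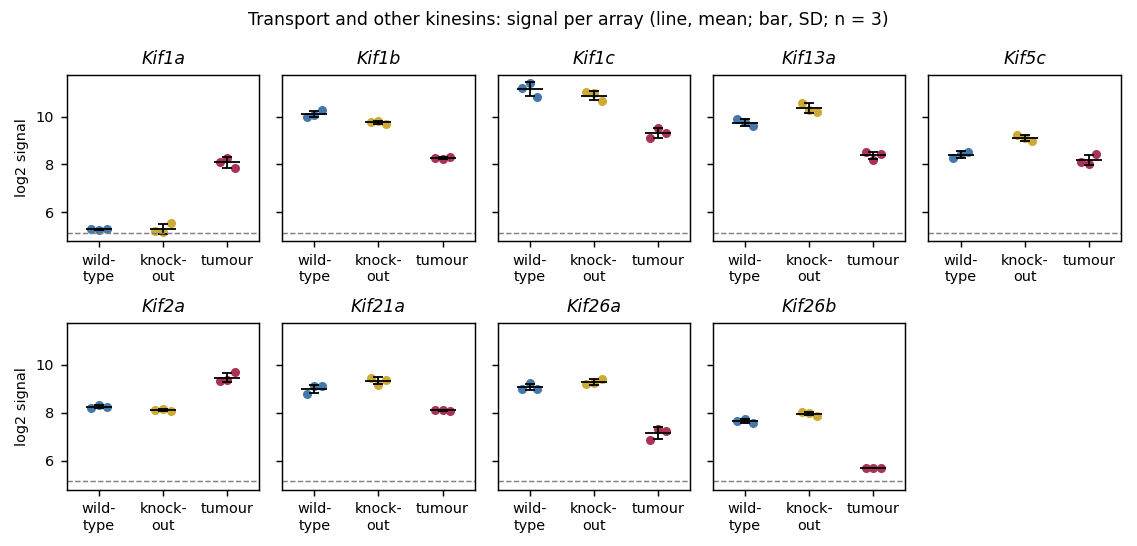
Log2 signal on each array by line (points), with the mean and SD over 3 arrays, for the transport kinesins Kif1a, Kif1b, Kif1c, Kif13a and Kif5c and the other kinesins Kif2a, Kif21a, Kif26a and Kif26b; the dashed line is the floor of 5.15. Kif1a and Kif2a are highest in the tumour line, Kif1b, Kif1c, Kif13a, Kif21a, Kif26a and Kif26b lowest there, and Kif5c and Kif13a are highest in the knockout line.

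Adaptors and partners of transport kinesins were called about as often as all genes. Of 15 measured, 1 rose and 1 fell in the tumour against the knockout line, where 14.2% of all genes were called, and their median was -0.08. The minus-end motor Kifc3, which acts at adherens junctions, rose by 1.18 ± 0.09, and Kifbp, which binds and inhibits kinesin-3 motors such as Kif1a and Kif1b, differed by -1.16 ± 0.10 (adjusted p = 1.25e-07). Against the wild-type line Kifc3 rose by 1.27 while the light chain Klc3 (-1.06 ± 0.11) and the adaptor Mapk8ip3 (-1.12 ± 0.16) fell, where 16.6% of all genes were called. Of 15 measured subunits of dynein and dynactin, which move cargo the opposite way, 0 were called between tumour and knockout lines, where 14.2% of all genes were, and their median was -0.28. By limma 8 of them had a p under 0.05 both adjusted, where 44.5% of all genes did, and unadjusted, where 49.5% did. Against the wild-type line 4 fell and 0 rose, where 8.46% of all genes fell: Dctn6 (-1.33 ± 0.13), Dync1li2 (-1.25 ± 0.12), Dynlt3 (-1.10 ± 0.10) and Dynll2 (-1.04 ± 0.14). Between knockout and wild-type lines 0 of these transport partners and dynein subunits were called, with 4 of each list at an adjusted p under 0.05 in limma, where 26.4% of all genes passed, and 6 and 7 at an unadjusted p under 0.05, where 35% did.

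**Figure D4:**
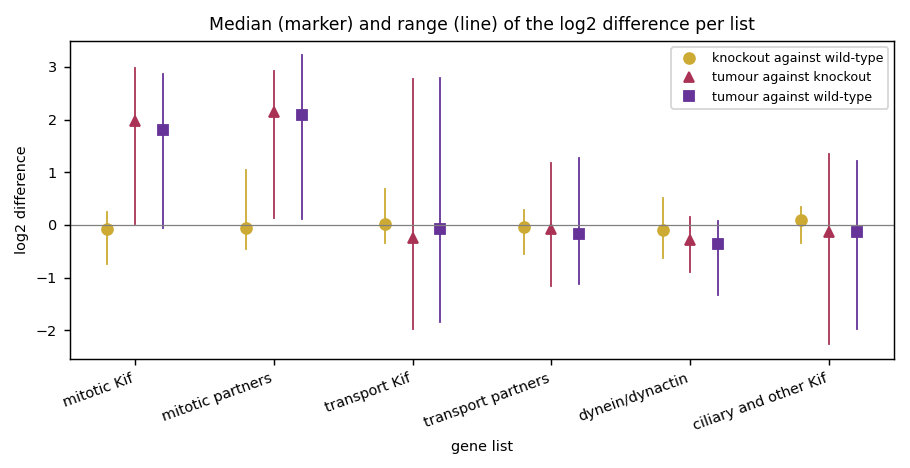
Median (marker) and full range (line) of the log2 difference per gene list in the 3 comparisons. Mitotic Kif genes and mitotic partners have medians of 1.98 and 2.15 between tumour and knockout lines, while the transport, dynein and other lists stay near 0 with transport and other Kif genes reaching far both ways.

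Among ciliary and other kinesins 1 of 12 rose and 3 fell in the tumour against the knockout line, where 7.79% of all genes rose and 6.38% fell. Kif2a, a depolymerase related to Kif2c that acts at spindle poles and in neurites, read 8.20, 8.30 and 8.25 on the wild-type, 8.13, 8.16 and 8.07 on the knockout and 9.34, 9.35 and 9.69 on the tumour arrays. The tracheal arrays lay close together and the tumour arrays above them. Kif2a rose by 1.34 ± 0.10 (2.53-fold, adjusted p = 4.22e-08) and by 1.21 ± 0.10 against the wild-type line; with the mean of its 5 probe sets both calls were lost, at 0.91 and 0.80. Kif21a, which restrains microtubule growth at the cell cortex, read 8.80, 9.11 and 9.10 (wild-type), 9.47, 9.17 and 9.38 (knockout) and 8.12, 8.12 and 8.06 (tumour). Its difference was -1.24 ± 0.11 against the knockout line (adjusted p = 1.75e-07), and -0.72 with the mean of its probe sets, which was not called. Against the wild-type line it was -0.90 ± 0.11, under 2-fold, but called without wild-type replicate 1, at -1.01.

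Kif26a and Kif26b are unusual kinesins whose motor domain does not hydrolyse ATP. Both fell in the tumour line. Kif26a, a brake on growth factor signalling in enteric neurons, read 9.01, 9.22 and 9.002, then 9.19, 9.22 and 9.41, then 6.87, 7.34 and 7.23 in wild-type, knockout and tumour lines. It differed by -2.13 ± 0.12 against the knockout line (4.38-fold, adjusted p = 1.73e-09) and by -1.93 ± 0.12 against the wild-type line. Kif26b, needed for kidney development, read 7.66, 7.76 and 7.59, then 8.03, 7.97 and 7.88, then 5.70, 5.69 and 5.70. Its 3 lines did not overlap, and it differed by -2.27 ± 0.09 (4.81-fold, adjusted p = 1.98e-11) and -1.98 ± 0.09 in these comparisons. Each has only 1 probe set here.

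Kif24, a depolymerase of centrioles that holds back cilia, was 0.74 ± 0.11 higher in the tumour line than in the knockout (adjusted p = 6.05e-05) and 0.87 ± 0.11 higher than in the wild-type line, both under 2-fold. Kif7, a ciliary regulator of Hedgehog signalling, was 0.39 ± 0.09 lower (adjusted p = 0.00215) and Kif9, a motor of motile cilia, 0.34 ± 0.10 lower (adjusted p = 0.0132). Kif6, Kif12, Kif21b and Kif27 differed by -0.38, 0.07, 0.13 and 0.10, with adjusted p of 0.0507, 0.617, 0.497 and 0.482. Kif28 was under the floor on all 9 arrays. None of the 7 markers of multiciliated cells was called, and their summed log2 level was 8.74 to 8.84 on the knockout and 8.59 to 8.74 on the tumour arrays.

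Of the 37 Kif genes 25 have several probe sets, and these did not always move alike. Of the 9 mitotic genes that rose against the knockout line 6 have other probe sets, and for 5 of them at least 1 other probe set was also called higher. In all, 7 of their 13 other probe sets were called the same way and 0 the opposite way. The second Kif23 probe set rose by 4.48 ± 0.18 log2, from a knockout mean of 4.28, which is under the floor, so that this size rests on background. The remaining Kif23 probe set stayed under the floor on all arrays. Kif18a and Kif20b also have probe sets that stay under the floor throughout, and averaged over all probe sets of the gene their rises were 1.40 and 1.11 in place of 2.62 and 1.95. For the 4 transport genes called, 6 of 14 other probe sets were called the same way, 0 the opposite way, and all 14 had the same sign. For Kif13a, all 4 other probe sets were lower in the tumour line, by 1.00 to 1.97 on the log2 scale, and 3 were called. For Kif1b, only 1 of 6 others was called, at -1.46, and the others ranged from -0.37 to -0.19.

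**Figure D5:**
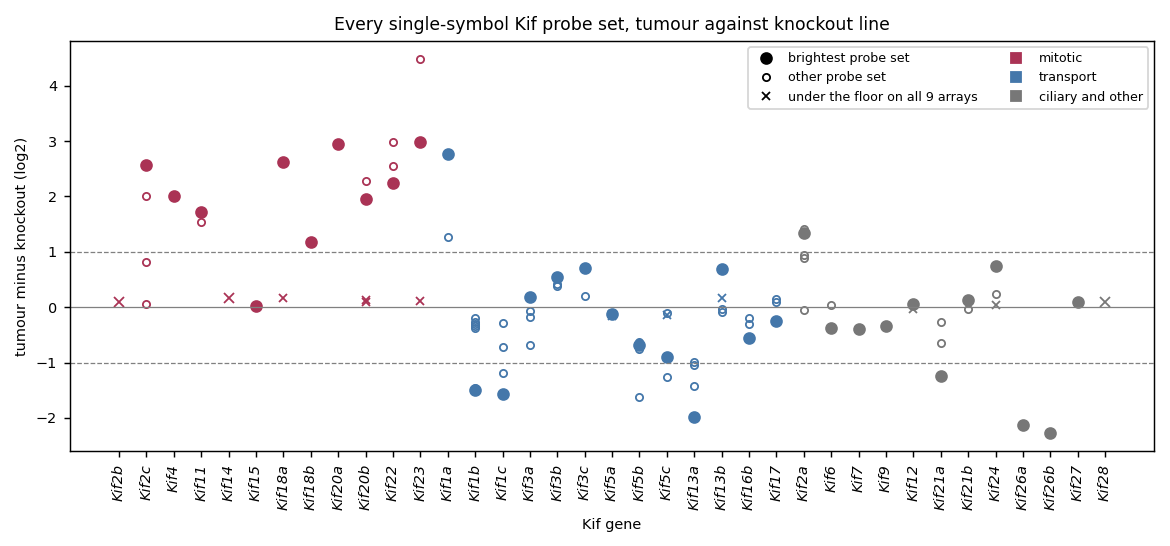
Log2 difference between tumour and knockout lines for all 99 Kif probe sets, by gene; filled points are the brightest probe set, open points the others, crosses those under the floor of 5.15 on all 9 arrays, and dashed lines mark 2-fold. The probe sets of Kif11 and Kif22 lie close together, while those of Kif2c, Kif20b, Kif23, Kif1b and Kif1c are spread, the crosses near 0.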

How the data were processed

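Total RNA of 3 cell lines was labelled with biotin and hybridised to Affymetrix MG-430 2.0 arrays, per the labels' protocols. The authors deposited log2 signals for 45101 probe sets. How probes were summarized is not given in the sources used here. Probe sets were joined to genes by the platform annotation, with symbols updated by Entrez ID. Of them 34945 had 1 symbol, 932 several and 9160 none, and 1 further Kif27 probe set with several symbols was left out.

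One linear model per gene (limma 3.58.1, R 4.3.3, lmFit and eBayes) was fitted to 18193 genes on all 9 arrays, with 6 residual degrees of freedom and no filter on low values. All p-values are two-sided, errors after ± are standard errors, and adjustment is by Benjamini-Hochberg over all genes (single probe sets: over 34945). The fit was tested on simulated data. Alternatives covered normalization, centring, probe set choice, thresholds, the variance model, the arrays used, a replicate block and each array left out. Same-numbered replicates of different lines did not deviate together (r from -0.14 to 0.12), so they were not paired.

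All Kif genes could be named, and up to 4 called partners per list and comparison. Members and lists were chosen with earlier results of these data known. Motifs were counted with Python 3.11.15. Protein sequences were not used here.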

Additional observations from a re-analysis of the deposited data

How the results depend on the processing

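No named Kif value changed sign among those called, and the mitotic count stayed at 9 in both tumour comparisons under every alternative but 1: without _x_at and _s_at probe sets it was 8 in each, since the brightest Kif2c probe set left was not called. With 1.5-fold as the limit the knockout and wild-type lines differed in 3 Kif genes, 1 mitotic and 2 transport, and with no limit on size in 7, of which 1 was mitotic, 4 transport and 2 others. Between tumour and knockout lines no limit gave 26 Kif genes (10 transport, 7 others), and 1.5-fold gave 8 transport genes. Averaging a gene's probe sets left 2 transport and 2 other kinesins there. The count over all genes under averaging is not given here, so whether this drop is particular to these kinesins was not tested. Between tumour and wild-type lines no limit gave 9 transport and 6 others, and 1.5-fold gave 5 others. These thresholds moved the count over all genes alike, from 888, 2578 and 3012 to 2178, 4881 and 5386 at 1.5-fold and to 4805, 8103 and 8614 with no limit.

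Leaving out 1 array gave 17 to 18 Kif genes between tumour and knockout lines (transport 4 to 5), 16 to 17 between tumour and wild-type lines (others 3 to 4), 9 mitotic in both and 0 between knockout and wild-type lines. Using all 9 arrays, 14.2%, 16.6% and 4.88% of all genes were called in these comparisons. With the replicate number as a block the counts were 0, 17 and 16 Kif genes in the 3 comparisons, the same as without pairing. The mitotic median between tumour and knockout lines ranged from 1.38, averaging probe sets, to 2.13, without the dimmest 40% of probe sets. Probe sets near the floor, as for Kif1a in the tracheal lines, limit the size of a fold, and 3 arrays per line limit the precision.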

Other observations

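Wild-type replicate 3 read at least 0.5 log2 below wild-type replicate 1 in 19 of the 99 Kif probe sets (19.2%), where this held for 7.43% of 34945 probe sets. The pattern was noticed after the values were seen. A dimmer Kif5b probe set read 9.79, 9.07 and 8.004 on wild-type replicates 1, 2 and 3, one of Kif5c 6.84, 5.30 and 4.90, one of Kif1b 7.56, 6.77 and 6.22, and one of Kif3b 7.64, 7.22 and 6.73. On these arrays beta-actin differed between its 3' and 5' probe sets by 0.75, 1.09 and 1.78 log2 in the same order. Its part was not tested.

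Other motifs were sparser in the Kif promoters. TTTAAA was present in 2 of 11 mitotic members (18.2%) and 14.9% of all genes, in Kif2c and Kif14. TTGGCGC, the form bound by E2F factors, was present in Kif15 and Kif18a (2 of 11, 18.2%) and in 2.85% of all genes. TTCGAA was present in 0 of 11 mitotic members, in Kif24 among the others and in 1.80% of all genes. TTTAAA and TTCGAA read the same on both strands. 0 of 10 transport members held any of the 3.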
